A study of Mus musculus with 16 samples.

Results

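The liver was compared between mice that had gone without food for 24 h and mice that ate freely, with 1 RNA-Seq library per condition. These are 2 of the 16 libraries in the series, which covers 8 tissues in both conditions. All mice were male and of the C57BL/6 strain, acquired at 12 weeks of age and given at least 10 to 14 days to acclimatise on chow, and they were killed at 10 am. Each library was made from equal amounts of liver of 3 mice combined, so differences between mice are not visible and no value below has a replicate error. The fasting library was set against the fed library gene by gene.

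The fasted liver is known to change fuel. It first breaks down its glycogen, then makes glucose from lactate, glycerol and amino acids (gluconeogenesis) and turns fatty acids from adipose tissue into ketone bodies, while falling insulin and rising glucagon and glucocorticoids act on its genes. The nuclear receptor PPAR alpha, the factor CREB and the FOXO proteins are known to drive many of the genes that rise without food, and SREBP-1c and ChREBP (Srebf1 and Mlxipl) those that make fat after a meal. Genes of fatty acid breakdown and of sterol synthesis are left aside here in favour of the rest of the liver's genes.

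The fed library held 23032656 counts on genes and the fasting library 24961373, so that 3 counts, taken as the floor, are 0.13 and 0.12 CPM (the count scaled to the library's total, not to gene length). Of 25048 genes with a count in either library, 14085 reached 1 CPM in at least 1 of them. A gene was called when its log2 fold change, with 0.01 CPM added to both values, passed 0.5 in size and a two-sided Fisher's exact test of the gene's counts gave an unadjusted p under 0.01. With 1 library per condition such a p sets one library against the other and says nothing of the conditions, so it serves only as a filter on counting error. By this rule 1117 genes (4.46%) rose and 2384 (9.52%) fell. Among genes at 1 CPM or more, 7.34% rose and 15.8% fell. TMM factors, which assume that most genes do not change, moved the log2 fold changes up by 0.12, and 1571 genes (6.27%) then rose and 1601 (6.39%) fell, or 10.2% and 10.8% of genes at 1 CPM or more. The share of called genes that rose was 31.9% on CPM and 49.5% with TMM factors. All 1117 genes that rose on CPM also rose on the TMM scale, and 1601 of those that fell also fell there. Counts of a list are given on the CPM scale, and the TMM count is added where it differs. The median log2 fold change of all genes at 1 CPM or more was -0.13, and a list's median is to be read against that value. Genes of the mitochondrial genome held 0 counts in both libraries and are not analysed here.

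Both libraries carried the genes that define hepatocytes. Albumin (Alb) went from 63761 to 52136 CPM (-0.29, not called) and apolipoprotein B (Apob) from 20066 to 24222 CPM (0.27, not called). The 13 hepatocyte markers summed to 132401 CPM fed and 125900 CPM fasting. Here and below, values run from the fed to the fasting library, and the number in brackets is the log2 fold change. Among these markers, transthyretin (Ttr), the carrier of thyroxine and retinol-binding protein, fell from 4518 to 2450 CPM (-0.88), and Hnf4a, a transcription factor of hepatocyte identity, rose from 620.0 to 964 CPM (0.64).

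The genes with the largest changes, among protein-coding genes called on both scales with at least 10 CPM in 1 library, included secreted factors, transporters and enzymes of lipid and steroid metabolism. Apoa4, an apolipoprotein of triglyceride-rich lipoproteins, rose from 50.7 to 2971 CPM (5.87). The hormone gene Fgf21, a liver signal of fasting, rose from 0.347 to 13 CPM (5.19). Its fed value rests on 8 counts, and the ratio of 37.5 has a 95% interval of 18.8 to 87.6 (exact Clopper-Pearson). This interval and the others below cover counting error only. E030018B13Rik, a predicted gene, rose from 3 to 530 counts, a ratio of 163 with an interval from 55.5 to 793. Cyp17a1, the steroid 17-hydroxylase, rose from 2.26 to 55.8 CPM (4.62). The lysophospholipid transporter gene Mfsd2a rose from 11.4 to 244 CPM (4.42). Slc16a5, of the monocarboxylate transporter family, rose from 2.65 to 52.8 CPM (4.31). Lepr, the leptin receptor, rose from 5.56 to 78.8 CPM (3.82). Eif4ebp3, which encodes a repressor of cap-dependent translation, rose from 2.3 to 33.3 CPM (3.85).

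Cgref1 rose from 0.304 to 11.2 CPM (5.16), with 7 counts in the fed library and a 95% interval of the ratio from 17.6 to 92.3. With 1 CPM added in place of 0.01, the log2 fold change was 3.22 for Cgref1, 3.38 for Fgf21 and 4.30 for E030018B13Rik. Cntnap1, known as a component of nerve junctions, rose from 1.56 to 29.0 CPM (4.21). The other large rises were Cidec and Acot3, described with their lists below, and 3 neighbouring genes of the Cyp4a family, which hydroxylate fatty acids. Cyp4a10 rose from 308 to 4214 CPM (3.77) and Cyp4a31 from 4.08 to 64.4 CPM (3.98). These copies resemble each other, and the authors' counting could have split reads between them or left shared reads out. On chromosome 4, between 115299046 and 115621602 of GRCm38, 5 of the 6 Cyp4a genes at 1 CPM or more rose.

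Of the large falls, several are genes of steroid, drug and lipid metabolism. Hsd3b5, a steroid dehydrogenase of male mouse liver, fell from 289.7 to 8.57 CPM (-5.08). Cyp2c70, which makes muricholic acids, fell from 505 to 24.1 CPM (-4.39). The lipogenic protein gene Thrsp fell from 155 to 7.45 CPM (-4.37). Serpina7, thyroxine-binding globulin, fell from 52.1 to 2.68 CPM (-4.27). Car3, a carbonic anhydrase, fell from 4385 to 282 CPM (-3.96), and the water channel gene Aqp8 from 151 to 11.1 CPM (-3.77). The forkhead factor gene Foxq1 fell from 60.4 to 4.29 CPM (-3.81). Further falls were Slc22a28 from 21.2 to 1.16 CPM (-4.18) and Clec2h from 27.2 to 1.76 CPM (-3.94).

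**Figure D1:**
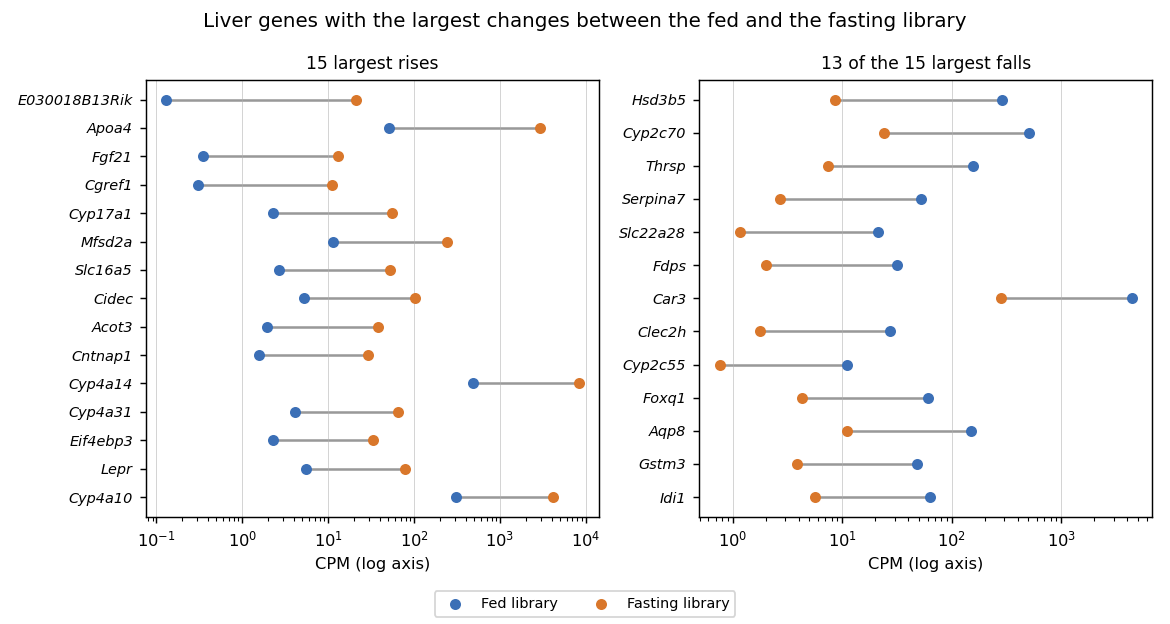
CPM (log axis) of the 15 largest rises and 13 of the 15 largest falls among protein-coding liver genes called on both scales, with pancreatic acinar genes apart; each line joins the fed library (blue) and the fasting library (orange), 1 library each. Apoa4 ran from 50.7 to 2971 CPM and Car3 from 4385 to 282 CPM.

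Gene lists of pathways were then read member by member. They differed widely, from lists in which most members rose to lists in which most fell. Glucocorticoid-responsive genes had a median log2 fold change of 1.27 and ketone body and PPAR alpha genes of 1.19. At the other end, glutathione S-transferases had -0.88 and interferon response genes -0.71. Of 84 ribosomal protein genes none was called on the CPM scale and 1 rose with TMM factors, and the median was 0.04 (0.16 with TMM factors). These medians describe 2 libraries and carry no test. A list with about 7.34% of its members up and 15.8% down holds no more calls than all genes at 1 CPM or more, and shares near these are not a feature of the list.

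**Figure D2:**
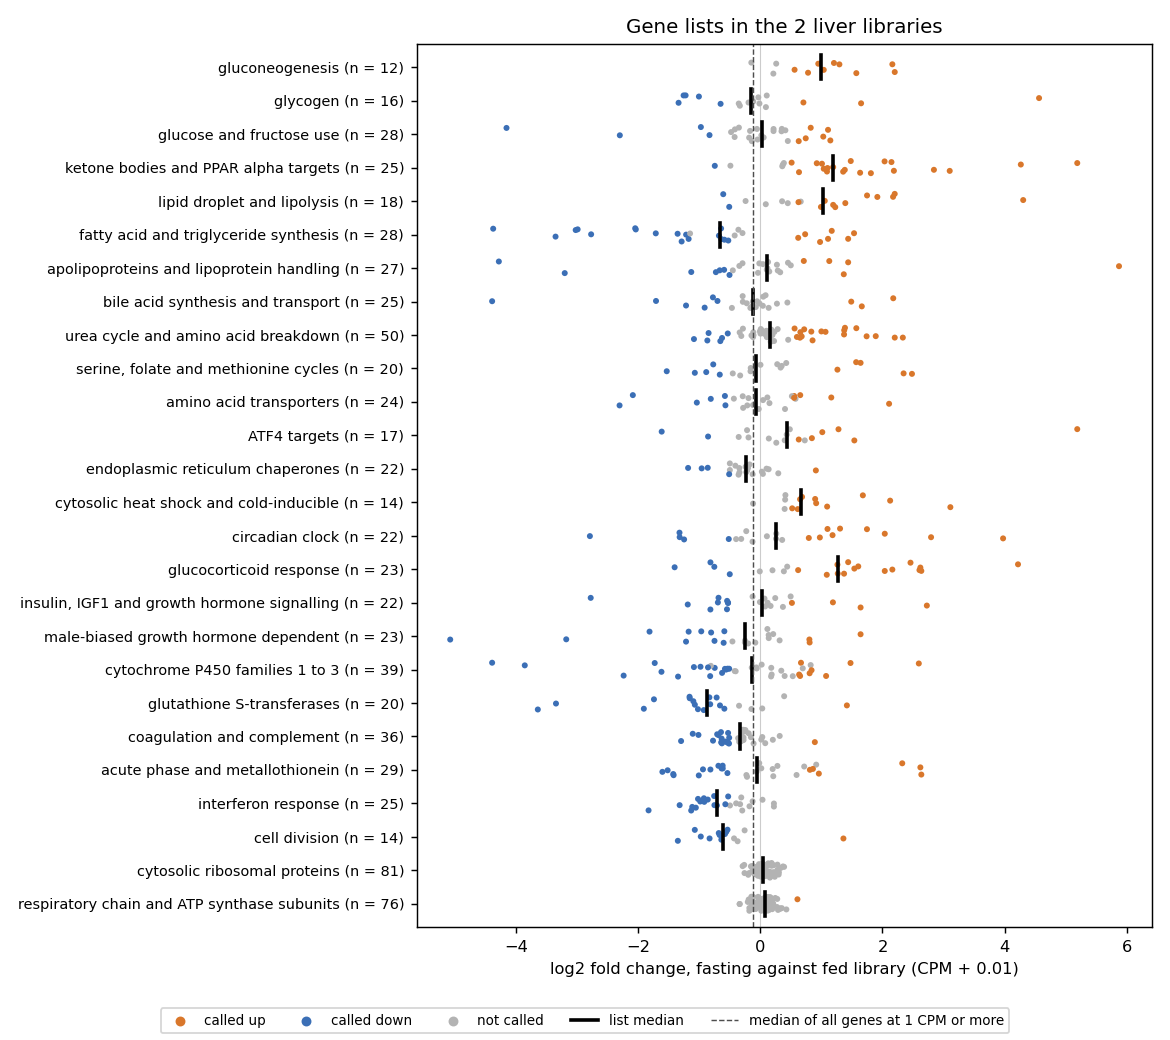
Log2 fold change of the members of 26 lists with at least 1 CPM in 1 of the 2 liver libraries; points are genes, coloured by the call on the CPM scale, black bars are list medians and the dashed line is the median of all genes at 1 CPM or more (-0.13). Ribosomal protein and respiratory chain genes lie close to 0, whereas gluconeogenesis, ketone body and glucocorticoid genes lie mostly to the right.

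Most genes of glucose production rose. Of 12 gluconeogenesis genes, all at 1 CPM or more, 9 rose and 0 fell, on both scales. Among all genes at 1 CPM or more these shares were 7.34% and 15.8% (10.2% and 10.8% with TMM factors). Pck1, which makes phosphoenolpyruvate from oxaloacetate and is the classical gluconeogenic target, rose from 1066 to 4768 CPM (2.16). Got1, the cytosolic aspartate aminotransferase, rose from 156 to 717 CPM (2.2). Gpt2, a mitochondrial alanine aminotransferase, rose from 384 to 1143 CPM (1.57) and its cytosolic relative Gpt from 225 to 332 CPM (0.56). The glucose-6-phosphate transporter gene Slc37a4 rose from 93.6 to 229.5 CPM (1.29). Pyruvate carboxylase (Pcx), which makes oxaloacetate, rose from 531 to 1024 CPM (0.95) and Fbp1, fructose-1,6-bisphosphatase, from 625 to 1074 CPM (0.78). Ppargc1a, the coactivator PGC-1 alpha, rose from 14.8 to 34.3 CPM (1.21). G6pc, the glucose-6-phosphatase that releases free glucose, went from 420.1 to 487 CPM (0.21, not called).

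Glycogen genes went both ways, with 3 of 17 up and 5 down on both scales. Pygl, the liver glycogen phosphorylase that breaks glycogen down, fell from 591 to 234 CPM (-1.34). Gbe1, the branching enzyme, fell from 145 to 72.5 CPM (-1.0). Gys2, the liver glycogen synthase, rose from 130.2 to 408 CPM (1.65). The subunits that target protein phosphatase 1 to glycogen were split. Ppp1r3b fell from 348 to 149 CPM (-1.22) and Ppp1r3c from 84.3 to 35.3 CPM (-1.26). Ppp1r3g rose from 0.304 to 7.41 CPM (4.56), with 7 counts in the fed library and a 95% interval of the ratio from 11.6 to 61.5. Gaa, the acid glucosidase that digests glycogen in lysosomes, rose from 92.7 to 151 CPM (0.70).

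In the list of glucose and fructose use, 6 of 29 genes rose (8 with TMM factors) and 4 fell. The falls included ketohexokinase (Khk), the first enzyme of fructose use, from 242 to 123 CPM (-0.97), and Pklr, the pyruvate kinase of liver, from 202 to 41.0 CPM (-2.30). Lactate dehydrogenase A (Ldha) rose from 447 to 913 CPM (1.03). Pfkfb1, the bifunctional enzyme that sets fructose-2,6-bisphosphate in liver, rose from 31.5 to 55.8 CPM (0.82) and its relative Pfkfb2 from 18.1 to 39.1 CPM (1.11). Slc2a2, the main glucose transporter of hepatocytes, went from 372 to 278 CPM (-0.42, not called).

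Genes of ketone body formation and targets of PPAR alpha mostly rose, in that 21 of 26 rose and 1 fell (22 and 1 with TMM factors). Bdh1, which reduces acetoacetate to hydroxybutyrate, went from 172 to 223 CPM (0.37, not called). Ppara itself rose from 145 to 275 CPM (0.92). Angptl4, a secreted inhibitor of lipoprotein lipase, rose from 66.1 to 271 CPM (2.03). Retsat, retinol saturase, rose from 487 to 2158 CPM (2.15), and the carnitine transporter gene Slc22a5 from 21.5 to 97.9 CPM (2.19). Acyl-CoA thioesterases of the Acot cluster on chromosome 12 (83987861 to 84111349) rose in 4 of 5 members at 1 CPM or more, with Acot1 from 23.2 to 166 CPM (2.84), Acot2 from 4.86 to 41.8 CPM (3.10) and Acot3 from 1.95 to 37.7 CPM (4.26). As near-identical copies they may share reads. The gene that fell was Slc16a6, a monocarboxylate transporter, from 9.81 to 5.85 CPM (-0.74).

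Genes of the lipid droplet, in which hepatocytes hold triglyceride, also mostly rose. In this list 11 of 18 rose and 2 fell (12 and 0 with TMM factors). Cidec, a droplet fusion protein, rose from 5.17 to 102 CPM (4.30). Of the perilipins, which coat droplets, Plin2 rose from 413 to 966 CPM (1.23), Plin4 from 19.7 to 74.2 CPM (1.92) and Plin5 from 29.4 to 135 CPM (2.2). Pnpla2, the adipose triglyceride lipase that opens lipolysis, rose from 36.8 to 123 CPM (1.75), and its inhibitor G0s2 from 52.2 to 235 CPM (2.17). Mgll, the last lipase of the chain, rose from 136 to 310.4 CPM (1.19), while Abhd5, the activator of Pnpla2, fell from 36.3 to 23.8 CPM (-0.61, called on the CPM scale alone).

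Synthesis of fatty acids and triglycerides moved the other way. Of 29 genes 17 fell (15 with TMM factors) and 7 rose. Srebf1, the transcription factor of the lipogenic programme, fell from 342 to 33.5 CPM (-3.35), and Mlxipl, which senses glucose, from 318 to 124 CPM (-1.35). Fatty acid synthase (Fasn) fell from 1050 to 154 CPM (-2.77), ATP citrate lyase (Acly) from 448 to 108 CPM (-2.05) and acetyl-CoA carboxylase 1 (Acaca) from 216 to 88.5 CPM (-1.29). The stearoyl-CoA desaturase Scd1 fell from 8682 to 2113 CPM (-2.04). Insig1, which holds SREBP proteins in the endoplasmic reticulum, fell from 462 to 56.8 CPM (-3.02), and Insig2, with the same role, rose from 272 to 587 CPM (1.11). Mid1ip1, a cofactor of acetyl-CoA carboxylase, fell from 57.4 to 7.21 CPM (-2.99). The rises were in other steps. The phosphatidate phosphatases Lpin1 and Lpin2 rose from 101 to 274 CPM (1.44) and from 287 to 832 CPM (1.53). Elovl5 and Elovl2, which lengthen polyunsaturated fatty acids, rose from 466 to 1049 CPM (1.17) and from 437 to 859.7 CPM (0.98).

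Lipoprotein genes were mixed, with 5 of 27 up and 7 down (7 and 5 with TMM factors). Beside Apoa4, the activator of lipoprotein lipase Apoa5 rose from 738 to 1613 CPM (1.13) and Apoc2 from 1.65 to 4.49 CPM (1.44). Lipg, endothelial lipase, rose from 12.9 to 33.4 CPM (1.37). Angptl8, which takes part in the inhibition of lipoprotein lipase, fell from 58.0 to 6.29 CPM (-3.20). Apoe went from 12016 to 12931 CPM (0.11, not called).

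In the list of bile acid genes 3 of 26 rose and 6 fell (4 and 6 with TMM factors). Cyp7a1, which opens the main route from cholesterol to bile acids, went from 131 to 134 CPM (0.04, not called). Cyp8b1, which directs synthesis to cholic acid, rose from 383 to 1212 CPM (1.66). Abcb11, the bile salt export pump, fell from 1106 to 339 CPM (-1.71), and Abcb4, which moves phospholipid into bile, rose from 333 to 933 CPM (1.49). The uptake transporters Slco1a1 and Slco1a4 went opposite ways, with a fall from 790.3 to 340.1 CPM (-1.22) and a rise from 42.6 to 193 CPM (2.18). Nr0b2, a repressor of bile acid synthesis known as SHP, fell from 26 to 15.2 CPM (-0.78).

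Amino acid breakdown and the urea cycle gained counts. The 50 genes of this list summed to 28486 CPM fed and 45048 CPM fasting, and 18 of 50 rose and 6 fell (19 and 5 with TMM factors). Cps1, which starts the urea cycle, rose from 6296 to 12589 CPM (1.0). Of the cycle's other enzymes, Ass1 rose from 1570 to 2377 CPM (0.60) and Asl from 299 to 1506 CPM (2.33), whereas Otc fell from 487 to 309 CPM (-0.66). Tat and Tdo2, which open tyrosine and tryptophan breakdown, rose from 839.6 to 2171 CPM (1.37) and from 1552 to 2553 CPM (0.72). Ornithine aminotransferase (Oat) rose from 527 to 1761 CPM (1.74), and Cth, the last step from methionine to cysteine, from 317 to 821 CPM (1.37). Aass, of lysine breakdown, rose from 393 to 1028 CPM (1.39). Glud1, glutamate dehydrogenase, fell from 1215 to 666 CPM (-0.87), and Haao, of the route from tryptophan to NAD, from 413 to 194 CPM (-1.09). Csad, which makes the precursor of taurine, fell from 472 to 262 CPM (-0.85).

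The largest gain in CPM among all genes measured lay in the methionine cycle. Mat1a, the liver's S-adenosylmethionine synthetase, rose from 2019 to 11283 CPM (2.48), a gain of 9264 CPM. The 12 genes with the largest gains, which also include Cyp4a14, Cps1, Bhmt, Apob and Pck1, held 34.1% of all CPM gained by genes at 1 CPM or more. Bhmt, which remakes methionine with betaine, rose from 2629 to 7799 CPM (1.57), and Ahcy, which removes the by-product of methylation, from 731 to 1754 CPM (1.26). Nnmt, which methylates nicotinamide, rose from 30.4 to 155 CPM (2.35). Gamt, which methylates guanidinoacetate to creatine, fell from 112 to 38.9 CPM (-1.53), and Gatm, the step before it, from 12.6 to 6.81 CPM (-0.89). Aldh1l1, of folate metabolism, fell from 1392 to 879 CPM (-0.66), and Mtr, the folate-dependent methionine synthase, from 26.5 to 15.5 CPM (-0.77). In the list of the serine, folate and methionine cycles 5 of 22 rose and 5 fell (6 and 4 with TMM factors), while their sum went from 9151 to 24337 CPM. The serine synthesis genes Phgdh, Psat1 and Psph were low and not called, with Phgdh from 0.695 to 0.721 CPM.

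**Figure D3:**
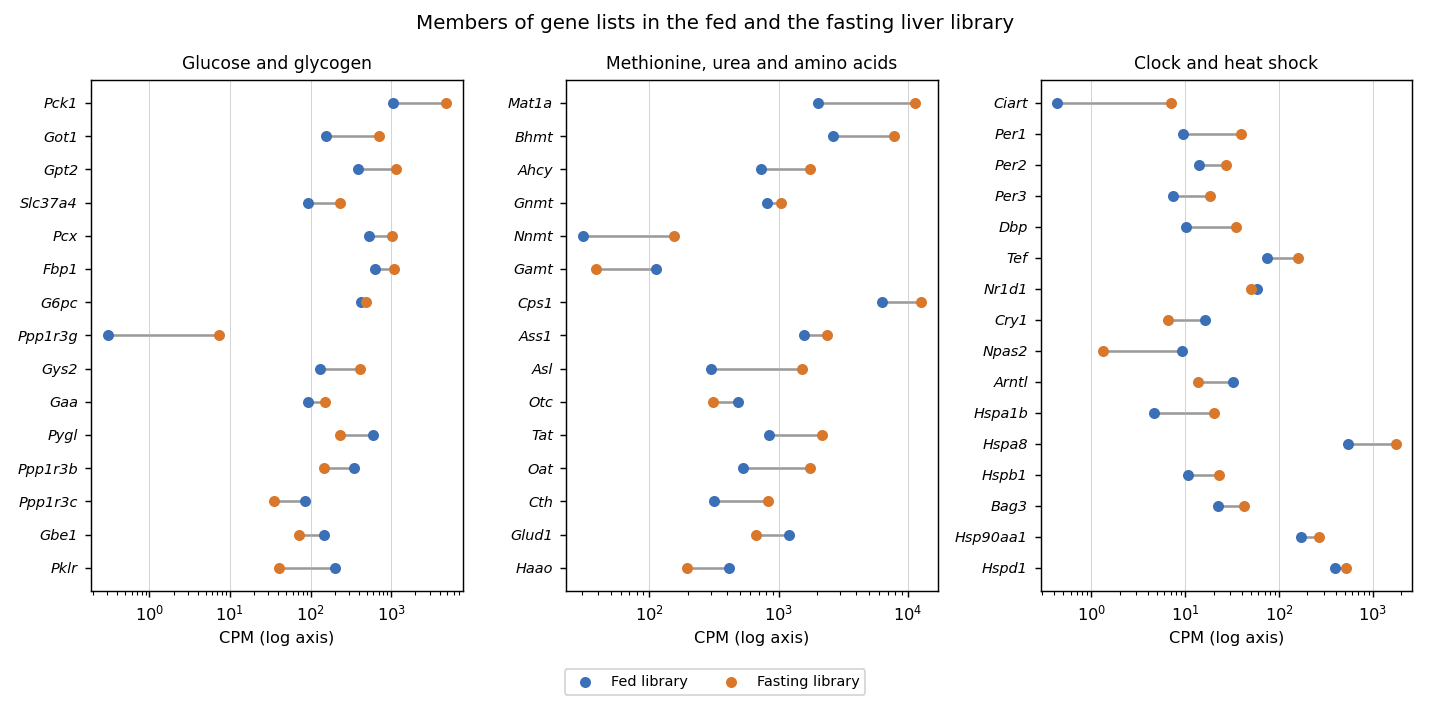
CPM (log axis) of members of the glucose, glycogen, methionine, urea cycle, clock and heat shock lists in the fed (blue) and fasting (orange) liver library, 1 library each. Mat1a, Cps1 and Pck1 lie higher in the fasting library and Pklr and Npas2 higher in the fed one.

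Transporters of amino acids showed 5 rises and 6 falls in 26 genes (8 and 4 with TMM factors). Slc7a2, a carrier of arginine and lysine, rose from 825 to 1845 CPM (1.16). The list also holds Slc25a47, a mitochondrial carrier of liver, which rose from 207 to 891 CPM (2.11). Slc1a4 fell from 7.16 to 1.44 CPM (-2.30) and Slc3a1, a subunit of the cystine carrier, from 66.1 to 15.5 CPM (-2.09). The targets of ATF4, the factor induced when amino acids run short, did not move as one. Of 20 genes 6 rose (10 with TMM factors) and 2 fell. Atf4 itself fell from 106 to 58.8 CPM (-0.85) and Chac1, which degrades glutathione, from 2.47 to 0.801 CPM (-1.61). Atf5 rose from 103 to 250.3 CPM (1.28), Ddit4, an inhibitor of mTORC1, from 3.34 to 9.73 CPM (1.54), and asparagine synthetase (Asns) from 3.91 to 6.05 CPM (0.63).

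Heat shock genes mostly rose. Their list also holds the mitochondrial chaperones Hspd1 and Hspe1 and the cold-inducible genes Cirbp and Rbm3, and in it 10 of 14 rose and 0 fell (13 and 0 with TMM factors). Hspd1 and Hspe1 were called on the TMM scale alone, Rbm3 rose from 32.3 to 50.7 CPM (0.65) and Cirbp went from 20.6 to 18.9 CPM (-0.12, not called). Hspa8, the constitutive HSP70, rose from 545 to 1744 CPM (1.68) and the inducible Hspa1b from 4.6 to 20.1 CPM (2.12), the latter a near copy of Hspa1a that may share its reads. Hspb1, a small heat shock protein, rose from 10.6 to 22.7 CPM (1.09), and the cochaperones Bag3 and Dnajb1 from 22.4 to 42.3 CPM (0.91) and from 15.5 to 28.9 CPM (0.90). Both cytosolic HSP90 genes rose, Hsp90aa1 from 172 to 264 CPM (0.61) and Hsp90ab1 from 695 to 998 CPM (0.52). Among chaperones of the endoplasmic reticulum 1 of 22 rose and 4 fell (1 and 3 with TMM factors), shares near the 7.34% and 15.8% of all genes at 1 CPM or more. Hspa5, its HSP70, went from 784 to 797 CPM (0.03, not called). Herpud1, of protein degradation at that membrane, rose from 214 to 402 CPM (0.91), and Sdf2l1 and the disulfide isomerase Pdia6 fell from 26.7 to 11.8 CPM (-1.18) and from 245 to 126 CPM (-0.96).

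Lists of the cell's basic machinery were read in the same way. Of 76 nuclear genes of the respiratory chain and ATP synthase 1 rose (2 with TMM factors) and 0 fell. The gene that rose on both scales was Atp5s, from 5.12 to 7.81 CPM (0.61). Of 38 proteasome genes 2 rose (7 with TMM factors) and 3 fell. Among all genes at 1 CPM or more 7.34% rose and 15.8% fell (10.2% and 10.8% with TMM factors). Psmd9, an assembly chaperone of the proteasome, rose from 26.1 to 76.3 CPM (1.55). The falls were the subunits of the immunoproteasome, the form induced by interferon, with Psmb8 from 21.2 to 13 CPM (-0.70), Psmb9 from 10.5 to 6.41 CPM (-0.71) and Psmb10 from 19.9 to 10.1 CPM (-0.98). In the list of autophagy and lysosome genes, 5 of 23 rose (9 with TMM factors) and 2 fell (1 with TMM factors). Bnip3, a receptor for the removal of mitochondria, rose from 110.4 to 284 CPM (1.36), the protease gene Ctsl from 416 to 811 CPM (0.96) and Map1lc3b, of the autophagosome membrane, from 70.5 to 125 CPM (0.82).

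Clock genes changed in both directions. Both libraries were collected at 10 am, and 9 of 22 rose and 5 fell (4 with TMM factors). The period genes Per1, Per2 and Per3 rose from 9.51 to 39.1 CPM (2.04), from 14 to 27.5 CPM (0.97) and from 7.47 to 18.5 CPM (1.30). Dbp and Tef, output factors of the clock, rose from 10.3 to 34.5 CPM (1.75) and from 74.1 to 159 CPM (1.10). Ciart, a repressor of the clock's activators, rose from 0.434 to 6.97 CPM (3.97), with 10 counts in the fed library and a 95% interval of the ratio from 8.52 to 34.1. Those activators, Arntl and Npas2, fell from 32.6 to 13.7 CPM (-1.25) and from 9.2 to 1.32 CPM (-2.79), and Clock, the partner of Arntl, went from 150.2 to 137 CPM (-0.13, not called). Cry1, a repressor that peaks late in the cycle, fell from 16.3 to 6.53 CPM (-1.32). The Rev-erb gene Nr1d1 went from 58.2 to 49.6 CPM (-0.23, not called). No other time of day was sampled, so a shift in phase and a change in level cannot be told apart.

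Most genes of the glucocorticoid list rose. In all 15 of 23 rose and 4 fell (17 and 3 with TMM factors). Fkbp5, a chaperone of the glucocorticoid receptor, rose from 16.3 to 99.1 CPM (2.60), and Tsc22d3, known as GILZ, from 75.9 to 117 CPM (0.62). Gadd45b rose from 0.391 to 7.45 CPM (4.22), with 9 counts in the fed library and a 95% interval of the ratio from 9.83 to 42.4. The metallothioneins Mt1 and Mt2, which bind zinc, rose from 8.42 to 52.4 CPM (2.64) and from 3.39 to 20.9 CPM (2.62). Cebpd, a transcription factor of stress, rose from 3.17 to 17.5 CPM (2.46), and Zbtb16 from 35.5 to 85.5 CPM (1.27). The receptor gene itself, Nr3c1, fell from 173 to 103 CPM (-0.75), Dusp1, a phosphatase of MAP kinases, from 32.4 to 18.4 CPM (-0.82), and Tsc22d1 from 74.8 to 28.3 CPM (-1.40). Pck1, Tat, Per1 and Lpin1 belong to this list as well as to those above.

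Promoters of all members of the gluconeogenesis, clock, heat shock and ATF4 lists were read next, whichever way the genes changed. The RefSeq windows of GRCm38.p6 from 250 bases before to 50 after a start site were searched for short motifs on both strands. Of 14073 symbols at 1 CPM or more, 9940 had such a window. For the cAMP response element the letters TGACGT were used, for the E-box CACGTG, for a pair of heat shock units GAANNTTC and for the amino acid response element TGATGCAA. Of the 10 genes of the heat shock and cold-inducible list with a window 8 held GAANNTTC, which stood in 7.86% of all 32851 windows. CACGTG was found in 5 of 18 clock genes and in 7.15% of all windows. For TGACGT the numbers were 3 of 10 gluconeogenesis genes and 7.51%, and for TGATGCAA 6 of 19 ATF4 targets and 0.895%. A list gene was counted when any of its windows held the letters, so the gene shares that follow are the closer comparison. Among genes at 1 CPM or more GAANNTTC stood in 8.49% of those that rose, 7.18% of those that fell on both scales and 7.26% of all. For CACGTG these shares were 13.7%, 9.44% and 11.6%, for TGACGT 12.4%, 8.4% and 12.9%, and for TGATGCAA 1.58%, 1.13% and 0.795%. These letters are a description and not a binding site, and their part in the changes was not tested.

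The windows of 4 genes that rose are shown 5′ to 3′ on the strand of the gene, with the letters of the motif, on either strand, in capitals. Pck1 (chr2:173152823-173153122, plus strand, TGACGT) and Fgf21 (chr7:45615441-45615740, minus strand, TGATGCAA) are shown because they rose most among genes with those letters in their lists, Ciart (chr3:95882179-95882478, minus strand, CACGTG) because it holds the E-box 3 times, and Hspa1b (chr17:34959189-34959488, minus strand, GAANNTTC) as the inducible heat shock gene. The Pck1 motif begins -91 bases, that of Hspa1b -104 and that of Fgf21 -139 from the start site.
Pck1: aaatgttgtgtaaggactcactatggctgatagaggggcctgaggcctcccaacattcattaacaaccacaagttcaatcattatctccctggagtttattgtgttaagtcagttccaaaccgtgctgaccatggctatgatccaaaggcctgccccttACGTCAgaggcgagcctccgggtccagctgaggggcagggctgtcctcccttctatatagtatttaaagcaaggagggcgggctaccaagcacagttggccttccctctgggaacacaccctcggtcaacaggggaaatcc
Ciart: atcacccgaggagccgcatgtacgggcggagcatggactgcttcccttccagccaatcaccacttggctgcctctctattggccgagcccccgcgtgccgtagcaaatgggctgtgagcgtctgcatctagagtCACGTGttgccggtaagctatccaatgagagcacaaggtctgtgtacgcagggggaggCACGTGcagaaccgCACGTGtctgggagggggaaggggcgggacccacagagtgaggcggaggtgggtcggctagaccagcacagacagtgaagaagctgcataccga
Hspa1b: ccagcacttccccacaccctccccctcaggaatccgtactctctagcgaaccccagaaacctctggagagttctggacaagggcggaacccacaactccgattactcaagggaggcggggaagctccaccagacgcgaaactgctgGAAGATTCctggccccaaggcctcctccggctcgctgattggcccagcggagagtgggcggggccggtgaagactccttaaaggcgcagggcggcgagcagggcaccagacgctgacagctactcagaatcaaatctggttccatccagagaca
Fgf21: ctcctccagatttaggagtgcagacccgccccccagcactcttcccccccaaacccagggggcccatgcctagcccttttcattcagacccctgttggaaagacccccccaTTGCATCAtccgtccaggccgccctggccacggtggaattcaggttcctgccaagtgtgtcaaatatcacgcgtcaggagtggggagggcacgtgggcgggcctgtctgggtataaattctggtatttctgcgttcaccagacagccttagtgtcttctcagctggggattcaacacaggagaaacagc

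Among transcription factors of liver, 10 of 35 rose (12 with TMM factors) and 8 fell. Creb3l3, a membrane-bound factor that drives Fgf21 and Apoa4, rose from 248 to 499.7 CPM (1.01). Nr1i3, the xenobiotic receptor CAR, rose from 169.6 to 406 CPM (1.26), and Cebpb, of gluconeogenesis and stress, from 39.6 to 80.0 CPM (1.01). Esrra, a partner of PGC-1 alpha, rose from 19.9 to 36.1 CPM (0.86), and Klf15, of amino acid breakdown, from 108 to 189.5 CPM (0.81). Onecut1, a factor of liver development, fell from 67.4 to 16.4 CPM (-2.04), and Foxa2, a pioneer factor of hepatocytes, from 43.9 to 18.9 CPM (-1.21). Foxo1, a main mediator of insulin's effect on liver genes, went from 46.5 to 60.1 CPM (0.37, not called).

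Genes of insulin, IGF1 and growth hormone signalling showed 4 rises and 9 falls in 22 (5 and 5 with TMM factors). The IGF-binding proteins Igfbp1 and Igfbp2 rose from 28.1 to 186 CPM (2.73) and from 300.4 to 937 CPM (1.64). Irs2, the insulin receptor substrate that insulin represses, rose from 27.1 to 61.9 CPM (1.19). The growth hormone receptor gene Ghr fell from 769 to 337 CPM (-1.19), and its feedback inhibitors Cish and Socs2 from 47.3 to 6.89 CPM (-2.78) and from 23.2 to 14.4 CPM (-0.68). Stat5b, which carries the signal to the nucleus, fell from 95.9 to 54.4 CPM (-0.82). Igf1, the hormone made on that signal, went from 737 to 675 CPM (-0.13, not called), whereas Igfals, its partner in blood, fell from 112 to 69.4 CPM (-0.69).

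Genes that the male pattern of growth hormone is known to keep high fell more often than they rose, with 10 of 23 down (8 with TMM factors) and 3 up. Beside Hsd3b5, Selenbp2 fell from 909.8 to 101 CPM (-3.18) and Nudt7 from 792 to 225 CPM (-1.81). Elovl3, which lengthens saturated fatty acids, fell from 537 to 238 CPM (-1.17). Cyp2d9 rose from 1010 to 1768 CPM (0.81). Of the female-biased genes with a count 6 of 15 rose and 2 fell (6 and 1 with TMM factors), and their sum went from 863 to 431 CPM. The rises included Fmo2 from 10.2 to 51.8 CPM (2.34) and Nipal1 from 3.34 to 14.8 CPM (2.15). Of the whole list 7 genes reached 1 CPM, and Lifr, the receptor of leukaemia inhibitory factor, fell from 812 to 273 CPM (-1.57). Of the major urinary proteins, pheromone carriers of male liver, 2 of 22 rose and 4 fell (3 and 3 with TMM factors). These shares are near the 7.34% and 15.8% of all genes at 1 CPM or more (10.2% and 10.8% with TMM factors). Mup14 rose from 657 to 1254 CPM (0.93) and Mup18 fell from 794 to 318 CPM (-1.32). The copies are nearly identical, and reads may have been assigned to the wrong one or lost.

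Glutathione S-transferases, which couple foreign compounds to glutathione, mostly fell. Among them 1 of 21 rose and 15 fell (2 and 14 with TMM factors). Gsta3 fell from 1338 to 400.1 CPM (-1.74), Gstm1 from 1141 to 511 CPM (-1.16) and Gstm3 from 48.1 to 3.85 CPM (-3.64). All 7 Gstm genes on chromosome 3 between 107895821 and 108044894 fell. Gstt2 rose from 39.0 to 104 CPM (1.42). In the list of xenobiotic sensing and oxidant defence 5 of 24 rose and 7 fell (6 and 5 with TMM factors). Gclc, which limits the synthesis of glutathione itself, fell from 529.9 to 203 CPM (-1.39). Aldehyde oxidase 3 (Aox3) fell from 1842 to 460.3 CPM (-2.0).

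The cytochromes P450 of families 1 to 3 were spread widely, with 9 of 50 up and 18 down (11 and 11 with TMM factors). Cyp2c29 fell from 1891 to 401 CPM (-2.24), Cyp1a2, of caffeine metabolism, from 597 to 195 CPM (-1.62), and Cyp2r1, a vitamin D 25-hydroxylase, from 23.8 to 7.17 CPM (-1.73). Cyp2e1, which oxidises ethanol and acetone, rose from 5477 to 8507 CPM (0.64), and Cyp2c39 from 1.17 to 7.13 CPM (2.60). Por, the reductase that passes electrons to all of them, rose from 128 to 719 CPM (2.49). Among the UDP-glucuronosyltransferases 3 of 19 rose and 6 fell, with Ugt2b1 down from 687 to 351 CPM (-0.97). Of 11 sulfotransferases 2 rose and 2 fell (1 with TMM factors), with Sult1a1, of phenol sulfation, up from 196 to 398 CPM (1.02). Of the carboxylesterases on chromosome 8 (93056728 to 105150109), which cleave esters of drugs and lipids, 13 of 14 at 1 CPM or more fell, 11 with TMM factors. The paralogs within these families may share reads. The Ces, Cyp4a, Acot, Gstm, Saa and Gbp clusters were picked after their values were seen.

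Among genes of clotting and complement falls outnumbered rises. In this list 1 of 36 rose and 16 fell (1 and 10 with TMM factors), and the median log2 fold change was -0.33 (-0.21 with TMM factors). F11, clotting factor XI, fell from 117 to 47.7 CPM (-1.30), and the complement genes C9 and C8a, of the membrane attack complex, from 547 to 254 CPM (-1.11) and from 963 to 477 CPM (-1.01). Complement C3 went from 7906 to 7995 CPM (0.02, not called). Pros1, the anticoagulant protein S, rose from 73.7 to 137 CPM (0.89). In the list of acute phase and metallothionein genes 6 of 29 rose and 12 fell (7 and 9 with TMM factors), with the metallothioneins Mt1 and Mt2, given above, among the rises. All 4 serum amyloid A genes on chromosome 7 (46711998 to 46754313) fell, with Saa1 from 24.5 to 8.05 CPM (-1.60) and Saa4 from 221 to 82.2 CPM (-1.43). Il1rn, which blocks the interleukin-1 receptor, rose from 1.43 to 7.21 CPM (2.32), and Serpina3n from 220.5 to 428 CPM (0.96).

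Genes that interferons induce fell in 15 of 25 cases (13 with TMM factors) and rose in 0. The chemokine gene Cxcl9 fell from 11.4 to 3.21 CPM (-1.83), Bst2, a restriction factor of viruses, from 71.0 to 32.4 CPM (-1.13), and the GTPase gene Iigp1 from 483 to 266 CPM (-0.86). Some members did not follow, such as Usp18 from 7.38 to 8.61 CPM (0.22, not called) and Rsad2 from 16.4 to 19.1 CPM (0.22, not called). Guanylate-binding proteins, GTPases of the same response, lie in 2 clusters. All 5 on chromosome 3 (142493978 to 142638008) and all 6 on chromosome 5 (105014150 to 105346472) at 1 CPM or more fell.

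Cell division genes were low in both libraries. Of 23 genes 10 fell (5 with TMM factors), Top2a from 3.39 to 1.32 CPM (-1.35) and Mki67, the proliferation marker Ki-67, from 5.21 to 2.92 CPM (-0.83), and Birc5 rose from 0.478 to 1.24 CPM (1.36). Among immediate early genes, which respond within minutes to stress and to handling, 4 of 21 fell, with Myc from 8.99 to 4.93 CPM (-0.87), and 0 rose. Among all genes at 1 CPM or more 7.34% rose and 15.8% fell, and the share of immediate early and of iron and haem genes that fell is near the latter. In the iron and haem list 2 of 24 rose and 3 fell (2 with TMM factors), with Alas1, the first step of haem synthesis in liver, up from 417 to 808 CPM (0.96). Among ribosome biogenesis genes 2 of 22 rose and 0 fell (4 and 0 with TMM factors), with Polr1a, of RNA polymerase I, up from 34.3 to 58.0 CPM (0.76).

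Hepatocytes near the portal vein and near the central vein express different genes, and both sets held rises and falls. Of 20 periportal genes 8 rose and 3 fell (1 with TMM factors). Of 20 pericentral genes 6 rose and 6 fell. On the periportal side, Cps1 and Pck1 rose, as given above, while Cdh1, E-cadherin, fell from 99.1 to 44.7 CPM (-1.15) and Hal, of histidine breakdown, went from 558 to 605 CPM (0.12, not called). On the pericentral side Glul, the glutamine synthetase of the cells around the vein, went from 912 to 794 CPM (-0.20, not called), Rgn fell from 982 to 275 CPM (-1.84), and Lgr5, a target of Wnt signals, from 11.9 to 7.25 CPM (-0.72). In pooled tissue, fewer cells of a type and less RNA per cell cannot be told apart.

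Of 24 genes of hormones and growth factors that the liver secretes, 7 rose (8 with TMM factors) and 6 fell. Beside Fgf21, Igfbp1 and Angptl4, Inhbe, which encodes activin E, rose from 41.7 to 118 CPM (1.5), and retinol-binding protein 4 (Rbp4) from 1288 to 2008 CPM (0.64). Inhba, the subunit of activin A, fell from 28.3 to 5.05 CPM (-2.48), and its antagonist follistatin (Fst) from 5.17 to 2.44 CPM (-1.08). Lect2, a hepatokine, fell from 75.9 to 33.9 CPM (-1.16), and Enho, the gene of adropin, from 16.1 to 8.65 CPM (-0.89). Hamp, hepcidin, which controls iron uptake, went from 263 to 334 CPM (0.34, not called).

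Of the long noncoding genes in the list 2 of 13 rose and 2 fell (5 and 2 with TMM factors), beside 7.34% and 15.8% of all genes at 1 CPM or more. Gm15441, which overlaps the Txnip locus in antisense, rose from 0.521 to 61.2 CPM (6.85), with 12 counts fed and a 95% interval of the ratio from 67.1 to 228. E230001N04Rik, on chromosome 17 between Fkbp5 and Clps, rose from 2 to 106 counts, a ratio of 48.9 with an interval from 13.2 to 409. Neat1, the scaffold of nuclear paraspeckles, fell from 2534 to 721 CPM (-1.81), and Malat1, another nuclear RNA, went from 6225 to 5660 CPM (-0.14, not called). Gm42418, on chromosome 17, where reads of ribosomal RNA are known to collect, fell from 2563 to 492 CPM (-2.38). It was named after its value was seen, and the part of leftover ribosomal RNA in the library totals was not tested. The strand setting of the authors' counting is not given in the sources used here, so reads of overlapping genes may not be separated.

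Some genes called the same way lay side by side. Among genes at 1 CPM or more there were 13 runs of at least 5 neighbours called in 1 direction on both scales, 5 up and 8 down. The longest, of 10 genes on chromosome 3 from 107741048 to 108086651, fell and ran from Csf1 through the Gstm genes to Ampd2. A run of 6 rising genes on chromosome 17, from 28399094 to 28560766, held Fkbp5, E230001N04Rik, 3 unnamed transcripts and Clps, the pancreatic colipase. Another run of 6 rising genes, on chromosome 8 from 10870422 to 11008458, ended with Irs2. These runs were picked by position after the values were known and have no test. Gene models of the 1034 genes called up were shorter, with a median of 3284 bases, than those of the 1525 called down on both scales, with 3848, and of the 10411 called on neither, with 4251. The share of protein-coding genes among them also differed, at 78.4%, 83.7% and 86.3%.

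Markers of other cell types were set beside these changes. The 13 markers of Kupffer cells, the macrophages of liver, summed to 345 CPM fed and 301 CPM fasting, and 1 of them rose (2 with TMM factors), Marco, from 3.91 to 5.57 CPM (0.51). Sinusoidal endothelial markers summed to 900.2 and 858 CPM, with Lyve1 up from 8.94 to 17.8 CPM (0.99). In the stellate cell and fibroblast list 4 of 16 fell and 1 rose. Col3a1, a collagen, fell from 54.3 to 20.8 CPM (-1.39), and Lrat, which stores retinol in stellate cells, from 36.7 to 17.5 CPM (-1.07). The sum of the list went from 689 to 636 CPM. Of 10 bile duct markers Krt23 rose from 1.74 to 13.4 CPM (2.94), Spp1 fell from 25.5 to 14.5 CPM (-0.81), and the defining keratins Krt19 and Krt7 went from 0.955 to 0.561 CPM (-0.76, not called) and from 0.781 to 0.521 CPM (-0.58, not called). B cell, T and NK cell and neutrophil markers summed to 23.0, 8.64 and 3.39 CPM fed and 20.8, 5.93 and 2.72 CPM fasting, with no gene called. Adipocyte markers, which share Lipe and Plin1 with liver lists, summed to 52.1 and 69.7 CPM, and 0 of 7 rose and 0 fell (3 and 0 with TMM factors). In the red cell list 1 of 7 rose and 1 fell (3 and 1 with TMM factors), and in the striated muscle list 1 of 8 rose and 0 fell. Of the markers of brown adipocytes, kidney tubule and lung epithelium none was called.

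Genes of the pancreas, which lies next to the liver, differed between the 2 liver libraries and were kept apart from the liver's own. Of the acinar genes, which encode digestive enzymes, 25 of 32 rose and 0 fell (26 and 0 with TMM factors), and their sum went from 164 to 401 CPM. Pancreatic lipase (Pnlip) rose from 19.4 to 45.4 CPM (1.23), chymotrypsinogen B1 (Ctrb1) from 11.3 to 40.1 CPM (1.82) and carboxypeptidase A1 (Cpa1) from 9.16 to 31.6 CPM (1.79). Islet genes lay the other way. Insulin 2 (Ins2) fell from 3.65 to 0.321 CPM (-3.47) and insulin 1 (Ins1) from 37 to 2 counts, 20.0 times lower with a 95% interval from 5.17 to 172, and glucagon (Gcg) stood at 0.174 and 0.16 CPM. Acinar genes were 25 of the 1117 genes that rose. Without them in the library totals, the numbers called were 1117 up and 2379 down. Fabp2, a fatty acid-binding protein in the intestinal list, rose from 47.8 to 113 CPM (1.24), while the other 4 intestinal markers with a count were below 1 CPM and not called. The part of pancreatic RNA in other liver changes was not tested.

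**Figure D4:**
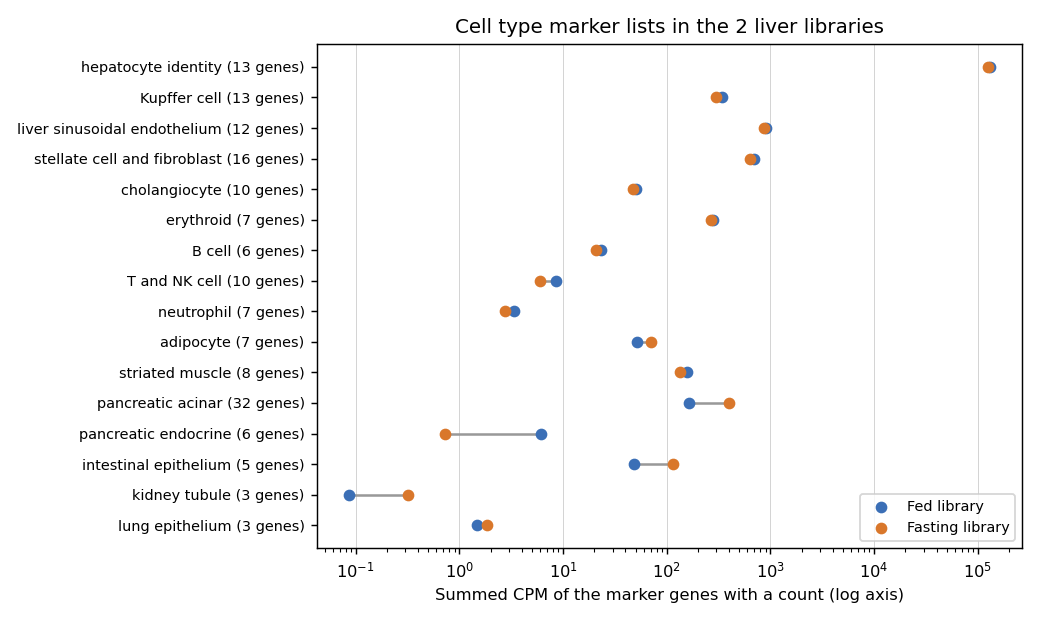
Summed CPM (log axis) of cell type marker lists in the fed (blue) and fasting (orange) liver library, 1 library each, with the number of genes that had a count. Hepatocyte, Kupffer, endothelial and stellate sums lie close together, whereas the acinar sum went from 164 to 401 CPM and the endocrine sum from 6.17 to 0.721 CPM.

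To ask which liver changes lay outside those of other tissues, all 16 libraries were fitted with edgeR's quasi-likelihood test in a model of tissue, fasting and a separate fasting term for liver. The 7 other tissues supply the spread, with 6 residual degrees of freedom. They come from the same 2 pools of mice as the liver, so they are not independent animals. Of 23580 genes tested 30 (0.127%) changed more upwards in liver and 19 (0.0806%) more downwards, at a Benjamini-Hochberg adjusted p under 0.05. At an unadjusted p under 0.05 there were 973 and 873. The number depended on which of the other tissues entered the fit. It was 4 upwards and 5 downwards without spleen, 7 upwards and 5 downwards without muscle, 9 upwards and 5 downwards without lung, 18 upwards and 13 downwards without heart, 21 upwards and 8 downwards without kidney, 21 upwards and 19 downwards without brown adipose tissue and 93 upwards and 73 downwards without white adipose tissue. Cela3b and Try5, among the 30, belong to the acinar list. Cela3b changed by -9.04 in spleen, which lies beside the pancreas, and by 1.67 in liver, and Try5 by -7.68 and 2.72. Neither was called when spleen was left out.

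Lepr had the smallest p. It changed by 3.82 in liver and by 0.14 to 0.87 in the others (edgeR adjusted p = 0.012, and 0.00199 to 0.0396 when 1 other tissue was left out). Apoa4 changed by 5.87 in liver and by -0.31 to 2.34 elsewhere (edgeR adjusted p = 0.0253, with a range of 0.00457 to 0.0557 and no call without muscle or without lung). Ciart changed by 3.97 against -0.16 to 0.69 (edgeR adjusted p = 0.0253, range 0.00458 to 0.0759, with no call without muscle, spleen or lung). The electron donor Por changed by 2.49 against -0.13 to 0.66, and was not called without spleen or without lung. Cntnap1, 1810055G02Rik and Nlrp12, a receptor of the NLR family, changed by 4.21, 2.55 and 2.34 in liver. Cdip1, a p53 target, and Cntrl, a centrosome protein, changed by 1.59 and 1.15. Psmd9, Cidec, Slc25a47, Oat and Cgref1, described above, were also among the 30. Of the 7 fits that leave out 1 other tissue, Oat and Cgref1 were called in 1, Slc25a47 in 2, Cidec in 3 and Psmd9 in 4.

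Among the genes lower in liver, Slc3a1 changed by -2.09 against -0.33 to 0.65 in the other tissues (edgeR adjusted p = 0.012, range 0.00261 to 0.0452). Aox3 fell in liver and changed by 0.30 to 1.11 elsewhere (edgeR adjusted p = 0.012, range 0.00284 to 0.0396). Aacs, which activates acetoacetate for lipid synthesis, fell from 88.2 to 10.6 CPM (-3.06) and changed by -0.94 to -0.32 elsewhere (edgeR adjusted p = 0.012, range 0.00261 to 0.0428). Foxq1 fell in liver, and its change ran from -0.28 to 2.77 in the others. The change of Car3 was -3.96 in liver and -1.01 to -0.12 in the others. Hmgcs1, Nsdhl and Fdps, of sterol synthesis, and Tsc22d1, Gm15998 and Gm4956 were the others of this group that the naming rule names. Of the 27 genes that this test called and any part of the naming rule names, Lepr, Slc3a1, Gm15998, Aox3, 1810055G02Rik, Aacs and Cntnap1 were called with each other tissue left out in turn, and the other 20 were called in 1 to 6 of these 7 fits, Nsdhl and Fdps in 2.

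**Figure D5:**
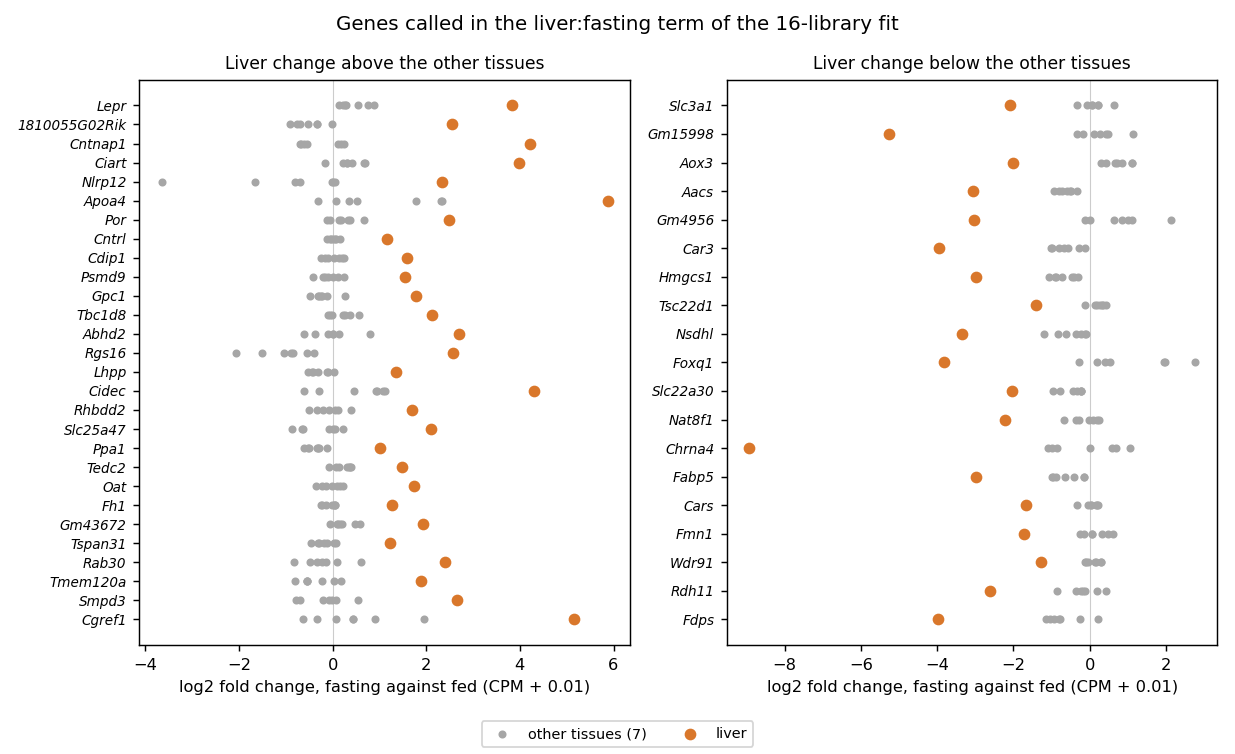
Log2 fold change, fasting against fed, of the genes called in the liver term of the 16-library fit, without Cela3b and Try5; orange points are liver and grey points the 7 other tissues, with 1 library per tissue and condition. Every orange point lies outside the grey ones, and Lepr stands at 3.82 against at most 0.87 elsewhere.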

How the data were processed

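Strand-specific short-read RNA-Seq libraries were made from 8 tissues of fed and fasted mice, 1 library per tissue and condition from the combined tissue of 3 mice. The authors deposited 1 table of raw gene counts. By the study's methods the steps were trimming (fastp 0.23.2), quality control (FastQC 0.11.8), alignment to GRCm38 (HISAT2 2.2.1.0) and counting over GENCODE vM24 genes (featureCounts of Subread 2.0). Whether strand was used in counting, and how shared reads were treated, is not given in the sources used here, and both can move counts between overlapping or copied genes. Gene symbols were added from GENCODE M21 of the same build, which matched 55144 of 55385 identifiers.

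Counts of the 2 liver libraries were scaled to CPM by library totals and, as an alternative, with TMM factors, and called as stated with the results. All 16 libraries were fitted with edgeR 4.0.16 (quasi-likelihood test, Benjamini-Hochberg adjustment over all genes tested). With 1 library per condition no condition was tested within liver, and the intervals given cover counting error only. Depth was 23032656 counts fed and 24961373 fasting.

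Members and gene lists were chosen with earlier results of these data known. Genes named were the 15 largest rises and falls among protein-coding genes called on both scales with at least 10 CPM, for each list the 3 highest members and the 3 largest changes each way, further list members where a pathway's account needed them, the 10 smallest p-values each way in the 16-library fit, and Alb and Apob. Alternatives were DESeq2 1.42.0 size factors and Wald test, a pseudocount of 1, totals without the acinar list or the 10 highest genes, a log2 threshold of 1, adjusted p-values, an edgeR exact test in which a biological variation of 0.2 or 0.4 was assumed, no filter on low counts, robust dispersion and each other tissue left out. On simulated data for fasting against fed liver, 187 of 200 genes changed by 1 on the log2 scale were recovered, with 53 false calls among 23926 genes. The spread between mice is not shown by these pools, so the 53 give no rate of false calls for the liver genes. For the liver term of the 16-library fit 128 of 200 genes changed by 2 were recovered, with 3 false calls among 23580. Python 3.11.15, scipy 1.17.1 and R 4.3.3 were used. Promoter windows are RefSeq's for GRCm38.p6. Results of some genes are not reported here, though they count in the totals of their lists.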

Additional observations from a re-analysis of the deposited data

Results flagged for a closer look

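In the fit over all 16 libraries, 27 of the genes named changed in liver to a different extent than in the other 7 tissues. The values that follow are the liver change minus that of the other tissues on the log2 scale, called at an edgeR quasi-likelihood adjusted p under 0.05. Higher in liver were Apoa4 (5.37), Cgref1 (4.89), Cntnap1 (4.61), Cidec (3.76), Ciart (3.72), Nlrp12 (3.47), Lepr (3.46) and 1810055G02Rik (3.17). Smaller differences in the same direction were those of Slc25a47 (2.48), Por (2.38), Oat (1.88), Psmd9 (1.72), Cdip1 (1.68) and Cntrl (1.24). Lower in liver were Gm15998 (-5.72), Foxq1 (-4.68), Gm4956 (-3.81), Car3 (-3.22), the sterol synthesis genes Fdps (-3.17), Nsdhl (-2.72) and Hmgcs1 (-2.20), and Aox3 (-2.65), Aacs (-2.33), Slc3a1 (-2.13) and Tsc22d1 (-1.53). The acinar genes Cela3b (10.01) and Try5 (9.69) stood apart. Cela3b changed by -9.04 and Try5 by -7.68 in spleen. In muscle both changed by -2.37, Cela3b by -2.77 in heart and -2.11 in lung, and Try5 by -2.81 in brown adipose tissue. Neither was called when spleen was left out.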

How the results depend on the processing

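Of 363 named fold changes, called or not, the status of 340 was the same with TMM factors, 10 gained a call and 13 lost it, while 360 had the same status with a pseudocount of 1 and 363 without the acinar list. No called gene changed direction under the scaling and pseudocount alternatives. Uncalled values near 0, such as that of Slc27a5, and list medians near 0, such as that of the hepatocyte markers, changed sign with TMM factors. TMM factors raised every list median by about 0.12, and this shift did not differ between lists. Of 51 list medians 47 stayed within the bounds computed for the CPM median. Those of coagulation, ribosomal protein, respiratory chain and adipocyte genes passed them. With a pseudocount of 1 the fold changes of genes with few fed counts were smaller, such as 2.69 for Ppp1r3g and 2.60 for Gadd45b on the log2 scale. Counts of rises and falls were 560 and 923 beyond a log2 fold change of 1, and, with edgeR's exact test, 391 and 530 at an assumed coefficient of variation of 0.2 and 98 and 116 at 0.4, so that they depend on a spread between mice that these pools do not show. In the 16-library fit the genes higher and lower in liver were 57 and 45 without a filter on low counts. By DESeq2's Wald test, which left 7772 of 23580 genes without an adjusted p, they were 184 and 152. With each other tissue left out in turn they ran from 4 to 93 and from 5 to 73, the lowest without spleen and, for falls, also without muscle and lung, and the highest without white adipose tissue. The cause was not tested. The 16-library fit compares libraries within each tissue. No paired analysis was possible within liver because it has 1 library per condition.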
